A study of Rattus norvegicus with 6 samples.

Results

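The enzymes described here belong to the pentose phosphate pathway or to other routes by which the cytosol regenerates NADPH, and do not cover all of either. Their RNA was measured in the renal cortex of rats given the fungicide chlorothalonil or its vehicle. The list held 7 genes (Pgls, Pgd, Rpia, Taldo1, Tkt, Me1 and Idh1), chosen by function, and a probe was taken where its identifier was a RefSeq transcript of one of them. This gave 10 probes for 6 genes, of 61537 probes for 15645 gene symbols on the array, because no probe matched the RefSeq transcript of Pgd, which is therefore not analysed here. All 10 probes were well above background on all 6 arrays, so none of them depended on a filter on dim signals. The animals were male Sprague-Dawley rats, 5 weeks old when obtained. Chlorothalonil was given to 3 of them at 500 mg/kg/day for 4 weeks, and corn oil, the vehicle, to another 3 for the same time. Each animal gave 1 Agilent 1-colour array, and the series calls the 3 samples of a group biological replicates.

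NADPH is the reducing agent with which cells regenerate glutathione and thioredoxin, run many detoxifying reductases and build fatty acids and sterols. The oxidative branch of the pentose phosphate pathway, to which the lactonase Pgls and the dehydrogenase Pgd belong, takes glucose phosphate to ribulose phosphate and yields NADPH. The reversible non-oxidative branch, made of Rpia, Tkt and Taldo1 among others, turns the resulting pentose phosphates into ribose phosphate for nucleotides or back into intermediates of glycolysis. Outside the pathway, Me1, the cytosolic malic enzyme, yields NADPH while turning malate into pyruvate, and Idh1, the isocitrate dehydrogenase of cytosol and peroxisomes, yields it while making alpha-ketoglutarate. The proximal tubule, which fills most of the cortex, is a site of gluconeogenesis and of glutathione-dependent handling of foreign compounds.

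Several facts of the whole experiment touch every value below. All chlorothalonil arrays lay on 1 slide and all corn oil arrays on another, scanned on different days, so the effects of slide and of treatment cannot be told apart. The labels of chlorothalonil replicate 3 disagree, since its source name states ethylenediamine dihydrochloride although the title, the treatment and the dose state chlorothalonil, and calls are also given without it. Proximal tubule markers, among them Slc34a1, Lrp2 and Aqp1, exceeded background clearly on each of the 6 arrays (12 of 12), as did all 9 measured markers of the loop of Henle, distal tubule and collecting duct. These values show kidney tubule and do not tell cortex from whole kidney. Corn oil replicate 3 had the smallest share of probes well above background, 62.1%, while the other 5 arrays had 66.3% to 67.8%. In whole tissue, fewer cells of a type and less RNA per cell cannot be told apart. Precision is limited by the small number of arrays.

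With chlorothalonil, the transaldolase Taldo1 and the transketolase Tkt rose, while the ribose phosphate isomerase Rpia, the lactonase Pgls and Idh1 did not pass the test and Me1 lay higher without passing it. Of the 6 measured enzymes, 2 rose and 0 fell at an adjusted p of 0.05 in limma, where 3.12% of all 29115 features tested were called, 1.3% higher and 1.82% lower. Before adjustment, 3 of the 6 were under 0.05, against 19.7% of all features. The median log2 fold change of the 6 was 0.35, and that of all features 0.0035. Levels are given as log2 of the spot signal minus the 75th percentile of its array, and fold changes as chlorothalonil minus corn oil on that scale. The probes that stand for the genes were A_43_P14221 for Tkt (NM_022592), A_44_P1021381 for Taldo1 (NM_031811), A_64_P139168 for Rpia (NM_001108632), A_42_P666843 for Pgls (NM_001106066), A_42_P792817 for Me1 (NM_012600) and A_43_P12569 for Idh1 (NM_031510). Levels of different enzymes come from different probes and are not compared with each other.

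Tkt, which moves carbon fragments between sugar phosphates with thiamine diphosphate as cofactor, had log2 signals of 8.54, 8.49 and 8.55 in chlorothalonil replicates 1 to 3, against 7.57, 7.59 and 7.58 in corn oil replicates 1 to 3. On the linear scale before scaling, the spot read 331424, 334151 and 315336 with chlorothalonil and 171192, 184373 and 177990 with corn oil. The groups did not overlap, and the gap of 0.90 between the lowest chlorothalonil and the highest corn oil array was far wider than either group. The SD was 0.03 among chlorothalonil arrays and 0.0069 among corn oil arrays (n = 3 each), and only 0.31% of features had a corn oil SD as small or smaller. Tkt rose by 0.94 ± 0.06 (SE) on the log2 scale, 1.93-fold with a 95% interval of 1.75 to 2.12, with a limma adjusted p of 0.0051. It ranked 20 among the 29115 features by p. The spot was brighter than those of 99.65% of features and was not saturated. Tkt passed in all 6 fits that left out 1 array, with log2 fold changes of 0.93 to 0.96, and without chlorothalonil replicate 3 its adjusted p was 0.036. Quantile normalization, which reshapes the brightest signals most, gave 0.72.

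Taldo1, which transfers a carbon unit from sedoheptulose phosphate and so closes the loop back to glycolysis, had log2 signals of 5.91, 5.86 and 5.86 with chlorothalonil and 5.19, 5.33 and 5.21 with corn oil. Again the groups did not overlap, the closest arrays lying 0.52 apart. The increase was 0.63 ± 0.07 (SE), or 1.55-fold with a 95% interval of 1.38 to 1.74, at a limma adjusted p of 0.0132. Its call was kept in only 2 of the 6 fits that left out 1 array. In those fits the calls over all features also fell, from 909 to between 112 and 388. The log2 fold change stayed between 0.60 and 0.68 when 1 array was left out, but the adjusted p was 0.0643, 0.0628 and 0.0611 without chlorothalonil replicates 1, 2 and 3 and 0.0599 without corn oil replicate 3.

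Rpia, the isomerase that makes ribose phosphate, had 2 probes. The brighter one read 1.08, 1.50 and 1.58 with chlorothalonil and 1.84, 1.74 and 1.33 with corn oil, and the groups overlapped. Its log2 fold change was −0.25 ± 0.19 (SE), with a 95% interval of −0.72 to 0.22 and a limma adjusted p of 0.525. The second probe gave −0.03, with a 95% interval of −0.54 to 0.49. For Rpia the lowest array of all was chlorothalonil replicate 1 on both probes. On both probes the other chlorothalonil arrays lay within the corn oil range.

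Within each array the 3 list members of the non-oxidative branch could be set against each other as ratios. Such a ratio cancels a scaling constant of the array, but not differences between arrays that depend on signal level. These ratios were added after the data had been seen. The log2 ratio of Tkt to Rpia was higher by 1.19 with chlorothalonil, reading 7.45, 6.99 and 6.97 against 5.73, 5.85 and 6.25 with corn oil. Taldo1 to Rpia was higher by 0.88, and Tkt to Taldo1 by 0.31, with ratios of 2.62, 2.63 and 2.69 in chlorothalonil arrays and 2.39, 2.26 and 2.37 in corn oil arrays. For these 3 ratios the groups did not overlap. The exact two-sided permutation p was 0.1 for each, the smallest that 3 arrays against 3 can give, and 0.125 after adjustment over the 5 ratios computed. The other ratios were Tkt to Pgls, higher by 0.97 without overlap, and Me1 to Idh1, at 0.56 with overlap and an exact p of 0.6. Quantile normalization brought the log2 fold changes of Tkt and Taldo1 closer, to 0.72 and 0.59 from 0.94 and 0.63. Rpia was then at −0.26. The size of the Tkt to Taldo1 difference thus depended on the normalization, and the ratios were not computed under it.

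Pgls, which opens phosphogluconolactone in the oxidative branch, had nearly the same signal in both groups. Its log2 signals were 2.06, 2.11 and 1.90 with chlorothalonil and 2.00, 2.15 and 1.97 with corn oil. The difference was −0.02 ± 0.09 (SE), with a 95% interval of −0.24 to 0.20 and a limma adjusted p of 0.923. A fold change beyond 0.85 to 1.14 lay outside that interval.

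**Figure D1:**
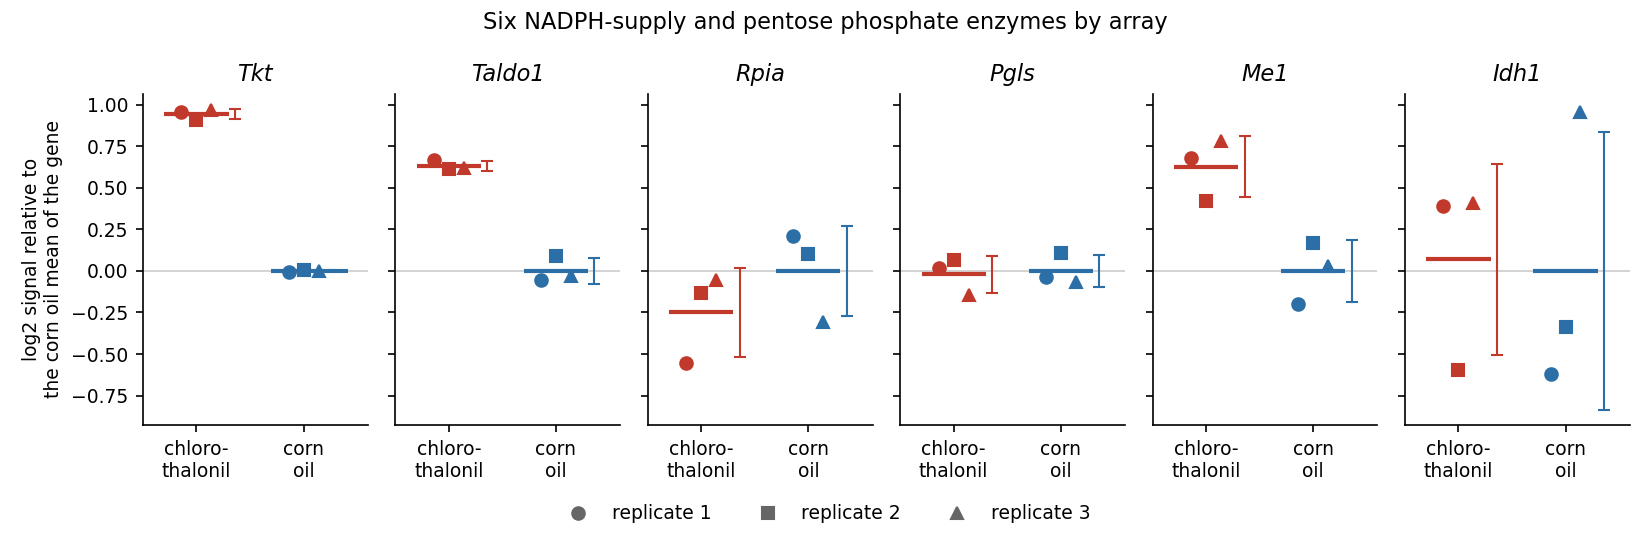
Log2 signal of the brightest probe of each enzyme on each array, relative to the corn oil mean of the same gene, with chlorothalonil arrays in red and corn oil arrays in blue, horizontal lines for group means and bars for ± 1 SD (n = 3). Tkt, Taldo1 and Me1 lie above corn oil on all 3 chlorothalonil arrays, while Rpia, Pgls and Idh1 overlap between the groups.

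Me1 was measured by 3 probes, and all of them placed every chlorothalonil array above every corn oil array. The brightest read 5.05, 4.80 and 5.16 with chlorothalonil and 4.18, 4.54 and 4.41 with corn oil, and the closest arrays lay 0.25 apart. Across all features 13.6% had all chlorothalonil arrays above all corn oil arrays, as Tkt, Taldo1 and Me1 did. The log2 fold change of Me1 was 0.63 ± 0.14 (SE), or 1.54-fold with a 95% interval of 1.23 to 1.95, at a limma adjusted p of 0.078, which missed the threshold. Its other probes gave 0.63 ± 0.11 and 0.55 ± 0.12. It passed with another background correction, at an adjusted p of 0.0446, and with a variance prior that follows the signal level, at 0.043. Chlorothalonil replicate 2 was the lowest chlorothalonil array and corn oil replicate 1 the lowest corn oil array on each of the probes.

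Idh1 varied more between animals than between groups. Its brighter probe read 6.07, 5.09 and 6.09 with chlorothalonil and 5.06, 5.34 and 6.64 with corn oil. Chlorothalonil replicate 2 lay well below the other arrays of its group, and corn oil replicate 3 lay well above all others. The linear signal differed 2.01-fold between the highest and the lowest chlorothalonil array and 2.97-fold between those of corn oil. The SD of Idh1 was as large as or larger than that of 97.0% of features among chlorothalonil arrays and 97.6% among corn oil arrays. Pearson's r between its probes was 0.999 over the 6 arrays. The log2 fold change was 0.07 ± 0.49 (SE), with a 95% interval of −1.13 to 1.27 and a limma adjusted p of 0.956, so neither a doubling nor a halving was outside the interval. Leaving out 1 array moved it as low as −0.24 where corn oil replicate 1 was dropped and as high as 0.55 where corn oil replicate 3 was.

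**Figure D2:**
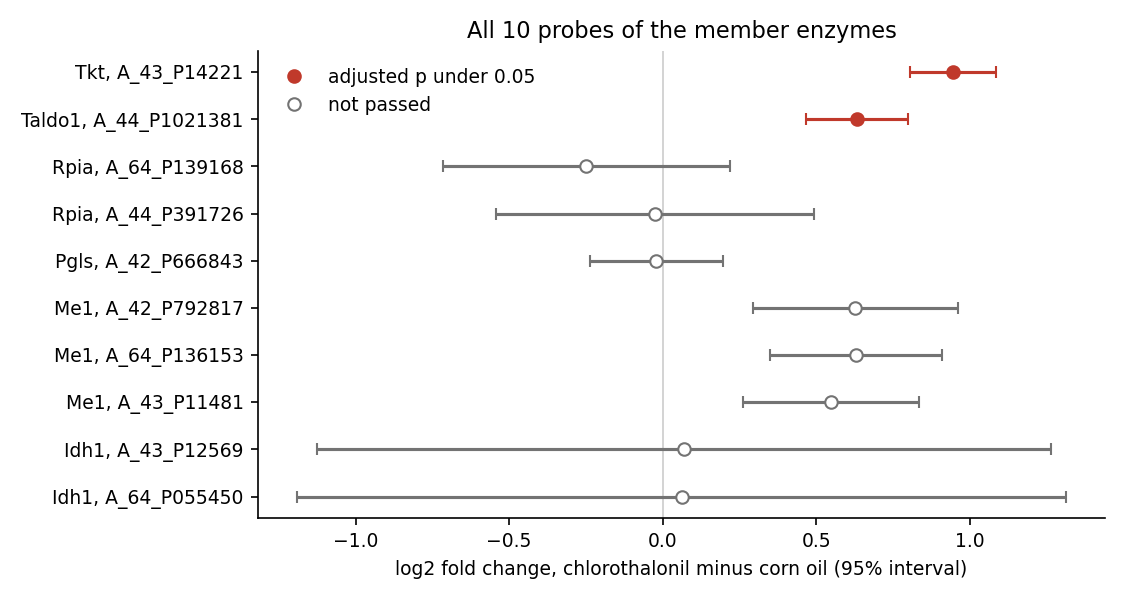
Log2 fold change, chlorothalonil minus corn oil, of each of the 10 probes with its 95% interval from a limma fit over all kept probes, filled where the adjusted p was under 0.05, as for 2.67% of all 39862 kept probes. The 3 probes of Me1 lie together near 0.6, and both probes of Idh1 have intervals that span −1.1 to 1.3.

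The promoter windows of the 3 enzymes whose groups did not overlap, and of Idh1, are shown because the windows could be searched for the core of the antioxidant response element, the site bound by the transcription factor NRF2. RefSeq windows (GRCr8) of 250 bases before to 50 after the annotated start were at hand for 6 of the 7 genes. The array headers name an older build, and these coordinates belong to the windows only. Each is printed 5′ to 3′ on the gene's strand, with a match to TGACNNNGC in capitals:
Tkt, chr16:5729982-5730281, plus strand: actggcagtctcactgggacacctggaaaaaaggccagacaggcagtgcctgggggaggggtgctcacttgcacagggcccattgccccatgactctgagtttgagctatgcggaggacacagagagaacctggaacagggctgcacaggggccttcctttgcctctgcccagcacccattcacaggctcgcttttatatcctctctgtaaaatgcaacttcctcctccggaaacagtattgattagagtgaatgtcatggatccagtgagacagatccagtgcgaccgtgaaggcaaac
Taldo1, chr1:205922946-205923245, plus strand: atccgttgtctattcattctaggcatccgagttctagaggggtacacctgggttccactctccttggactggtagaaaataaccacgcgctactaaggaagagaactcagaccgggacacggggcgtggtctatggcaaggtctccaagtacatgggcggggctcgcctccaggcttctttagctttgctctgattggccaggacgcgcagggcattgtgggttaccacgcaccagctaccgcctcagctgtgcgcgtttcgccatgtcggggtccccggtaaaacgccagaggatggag
Me1, chr8:96540195-96540494, minus strand: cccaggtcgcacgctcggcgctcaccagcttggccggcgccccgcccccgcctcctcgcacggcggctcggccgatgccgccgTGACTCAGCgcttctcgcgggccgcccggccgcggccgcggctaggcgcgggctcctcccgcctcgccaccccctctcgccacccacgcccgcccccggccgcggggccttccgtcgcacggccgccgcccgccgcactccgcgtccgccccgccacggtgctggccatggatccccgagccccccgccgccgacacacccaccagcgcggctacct
Idh1, chr9:74049425-74049724, minus strand: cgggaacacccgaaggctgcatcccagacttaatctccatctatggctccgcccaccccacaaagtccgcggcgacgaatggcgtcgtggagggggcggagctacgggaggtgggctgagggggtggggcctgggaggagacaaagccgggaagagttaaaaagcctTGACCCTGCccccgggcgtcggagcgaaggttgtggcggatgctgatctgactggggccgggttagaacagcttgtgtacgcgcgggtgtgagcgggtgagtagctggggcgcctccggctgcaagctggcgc
The motif, searched on both strands, matched once in Me1, as TGACTCAGC beginning at position −167 from the start, and once in Idh1, as TGACCCTGC at −83. It matched in 2 of the 6 windows, while 12.1% of 33469 rat windows of that length held it. The windows of Tkt, Taldo1, Rpia and Pgd held no match, which says only that these letters were not in those 300 bases. For Tkt and Idh1 the window belonged to a start site 851 and 7968 bases inside the gene record, so upstream sequence of the longest transcripts was not searched. The CCAAT box, also on both strands, matched in 2 windows, those of Pgd and Taldo1, against 37.5% of all windows. GGGCGG, the GC box, matched in 5 windows, all but that of Tkt, against 33.1% of all windows. The palindrome CACGTG matched in 0 windows against 6.42%. These motifs did not overlap the capitals shown.

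The genes whose arrays ran most like those of an enzyme were taken as the 3 highest Pearson's r over the 6 arrays among 11317 other named genes well above background on all arrays. With 6 arrays and so many genes, high values arise readily, and the r is given as a description. For Tkt they were Dap, a positive mediator of programmed cell death, at 0.9993, the alkenal reductase Ptgr1 at 0.9985 and the NADPH oxidase Nox4, abundant in kidney, at 0.9977. Dap, Ptgr1 and Nox4 had limma log2 fold changes of 1.65, 1.10 and 0.90, with adjusted p of 0.00092, 0.0036 and 0.0059. For Taldo1 they included the glutathione transferase Gsta1, of a family of near-identical genes, and the matrix protein Ltbp2, both at 0.998. Among the patterns most like that of Me1 were those of Mien1, at 0.995, and Trappc2b, at 0.992, with log2 fold changes of only 0.21 and 0.11. Idh1 ran with the histone demethylase Kdm2a, at 0.999, the ubiquitin ligase scaffold Cul4b, at 0.993, and the RNA processing factor Nudt21, at 0.992, but these spanned far less. Kdm2a read 2.10, 1.97 and 2.11 with chlorothalonil and 1.97, 2.00 and 2.17 with corn oil. Pgls ran with the chaperone Hsp90aa1, Lamtor1 and Irs3, at 0.976, 0.974 and 0.972, and Rpia with Rwdd2b, Wdr12 and Plcd3, at 0.977, 0.973 and 0.971.

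A further list of pentose phosphate and ribose genes, which does not cover the rest of the pathway, gave no call. Of 9 measured genes for pentose phosphates and ribose, limma called 0 after adjustment and 4 were under 0.05 before it, with a median log2 fold change of 0.09. The ribokinase Rbks had the smallest p, at 0.29 ± 0.07 (SE), adjusted p 0.0924. It read 2.88, 2.83 and 2.92 with chlorothalonil and 2.57, 2.66 and 2.51 with corn oil. H6pd, which runs the oxidative steps inside the endoplasmic reticulum, was at 0.25 ± 0.06 with an adjusted p of 0.108, and the sedoheptulose kinase Shpk was at 0.21 ± 0.07 with 0.167. Prpsap1, a protein associated with phosphoribosyl diphosphate synthase, was at −0.26 ± 0.08 with 0.153. H6pd, Shpk and Prpsap1 were picked with their values known, as the others of those 4.

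Among 12 measured NADPH suppliers and NAD kinases outside the pathway, 1 rose, 0 fell and 11 did not pass. Aldh1l1, the cytosolic formyltetrahydrofolate dehydrogenase, which yields NADPH from folate-bound formyl groups, read 6.06, 6.13 and 6.03 with chlorothalonil and 4.20, 4.06 and 4.10 with corn oil. It rose by 1.95 ± 0.07 (SE), or 3.88-fold, with a limma adjusted p of 0.00092, and passed in all 6 fits that left out 1 array. Mitochondrial Idh2, the counterpart of Idh1 and named with its value already known, was at 0.16 ± 0.06 (adjusted p 0.255). The list's median was 0.16.

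Among 16 genes listed as NADPH-using reductases, all measured, 6 rose, 0 fell and 10 did not pass, and the list's median was 0.27. The list held Cyb5r3, which draws mainly on NADH and did not pass. Several genes of the list were already known to be high in these data, so the count is a description. Nqo1, the quinone reductase, which uses NADH as well, read 1.47, 1.77 and 0.21 with chlorothalonil and −3.10, −2.88 and −3.56 with corn oil, the lowest treated array being chlorothalonil replicate 3. It rose by 4.33 ± 0.43 (SE), and its 2 probes gave 3.80 and 4.33. Akr7a3, an aldo-keto reductase that acts on aflatoxin dialdehyde, rose by 1.71 ± 0.14 (SE), Blvrb, the flavin reductase, by 1.17 ± 0.13, and Ptgr1 by 1.10 ± 0.06. Txnrd1, the cytosolic thioredoxin reductase, rose by 0.89 ± 0.09, with its 4 probes between 0.84 and 1.21. Gsr, the glutathione reductase, rose by 0.62 ± 0.09 with a limma adjusted p of 0.0345, reading 1.57, 1.46 and 1.52 with chlorothalonil and 1.05, 0.74 and 0.91 with corn oil. Akr7a3 and Ptgr1 passed in all 6 fits that left out 1 array, Nqo1 in 3, Txnrd1 and Blvrb in 2 and Gsr in 1. Nqo1 was lost without chlorothalonil replicate 1 or 2 or corn oil replicate 3, with adjusted p up to 0.0579, and without chlorothalonil replicate 3 it rose by 4.80 at 0.0231. Txnrd1 passed without chlorothalonil replicate 2 or corn oil replicate 1, Blvrb without corn oil replicate 1 or 2 and Gsr without corn oil replicate 1, and the adjusted p of these 3 otherwise ran up to 0.122. The mitochondrial Txnrd2, at −0.23 ± 0.12, and the carbonyl reductase Cbr1, at −0.10 ± 0.15, did not pass and are named with their values already known.

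**Figure D3:**
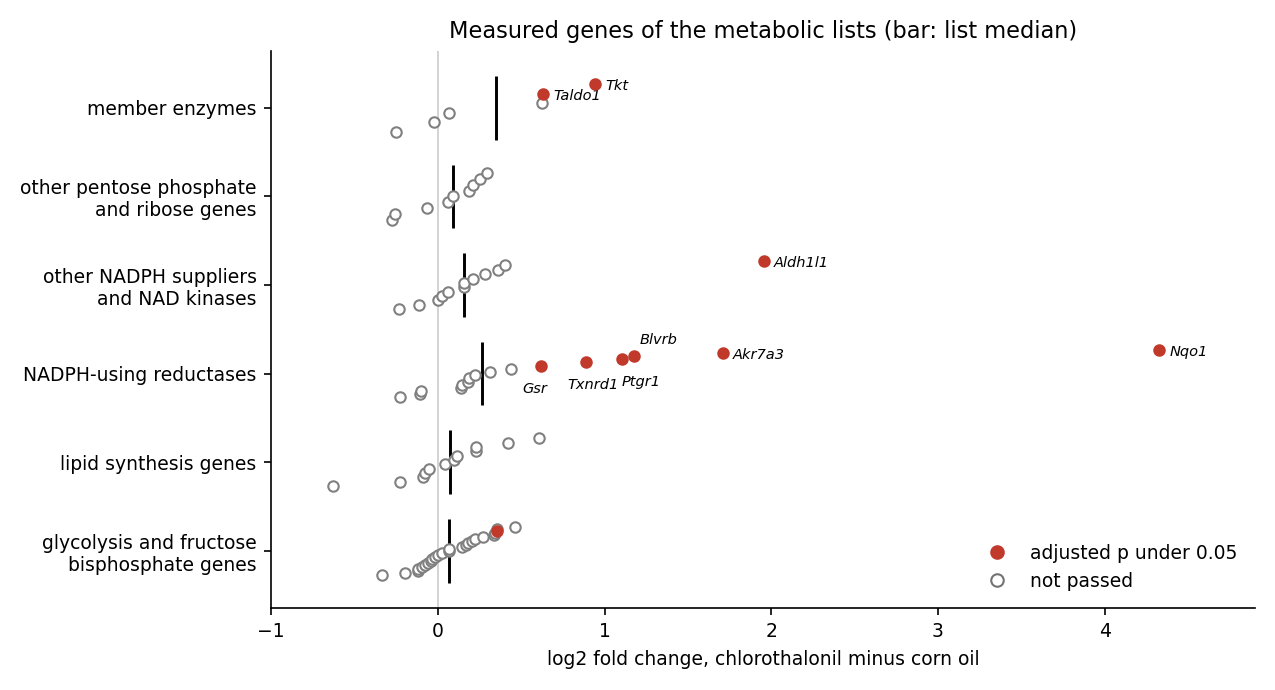
Log2 fold change, chlorothalonil minus corn oil, of every measured gene of the member list and of 5 related lists, 1 point per gene. Points are filled where the limma adjusted p was under 0.05, and a bar marks each list's median. Filled points carry the gene's name, except in the list of glycolysis and fructose bisphosphate genes. The genes that passed lie right of 0, and most of the others lie within 0.4 of it.

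Lipid synthesis, the other large user of cytosolic NADPH, gave 0 of 12 measured genes past the threshold in limma, with 3 at an unadjusted p under 0.05 and a median of 0.07. Acacb, an acetyl-CoA carboxylase, had the smallest p, at 0.42 ± 0.09 (SE), adjusted p 0.0842. Fatty acid synthase, Fasn, read 1.19, 1.32 and 1.66 with chlorothalonil and 1.22, 1.59 and 1.22 with corn oil, at 0.04 ± 0.16. ATP citrate lyase, Acly, was at −0.09 ± 0.14, and both are named with their values already known. The summed linear signal of the list, relative to the 75th percentile, was 33.5 to 39.7 with chlorothalonil and 31.6 to 37.5 with corn oil.

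Of 25 genes of glycolysis and fructose bisphosphate metabolism, which exchange intermediates with the non-oxidative branch, 1 rose, 0 fell and 24 did not pass. That call was lost in every fit that left out 1 array. The list's median was 0.06, and 8 of the 25 had an unadjusted p under 0.05, 7 of them higher. The value of Gapdh, picked with its result known, was −0.04 ± 0.07.

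Markers of cell types were read on the same arrays. Of the 12 proximal tubule markers, limma called 0 after adjustment and 5 were under 0.05 before it, 3 higher and 2 lower. Slc13a3, a dicarboxylate transporter, had the smallest p, at 0.34 ± 0.06 (SE), adjusted p 0.0507. Of the 12 markers 6 lay above 0 and 6 below, with a median of 0.0094. The summed linear signal of that list, in which the brightest markers weigh most, was 2374 to 2481 with chlorothalonil and 2107 to 2278 with corn oil. Red blood cell transcripts, 6 of them measured, gave 0 calls in limma. All 6 lay above 0, 4 of them at p under 0.05 before adjustment, with a median of 0.30. Slc25a37, the mitochondrial iron importer, was at 0.45 ± 0.09 (adjusted p 0.06), and the summed signal of the list was 556.9 to 603.7 with chlorothalonil and 476.5 to 497.6 with corn oil. The part that either list had in the values of Tkt, Taldo1 and Me1 was not tested. By the same test in limma, 0 of 9 distal nephron and collecting duct markers passed, 2 having an unadjusted p under 0.05, with Calb1 at −0.56 ± 0.14 and Slc4a1, named with its value known, at 0.73 ± 0.21. Of those 9, 6 lay above 0, with a median of 0.04. The count was 0 of 10 for podocytes and endothelium, 0 of them under the unadjusted level, with Cdh5 at 0.17 ± 0.09, and 0 of 7 for macrophages and lymphocytes, 1 under it, with Adgre1 at −0.47 ± 0.12. It was 0 of 6 for fat tissue, 1 under it, with the dim Ucp1 at 0.86 ± 0.33. Ucp1 was well above background on only 3 arrays and was kept through 1 group alone, so no conclusion is drawn from it. The count was 0 of 7 for fibroblasts and matrix, 0 under the unadjusted level, with Col3a1 at 0.44 ± 0.25. The fat tissue sum was 1.43 to 2.08 with chlorothalonil and 1.34 to 1.95 with corn oil, and Plin1 and Lep gave no kept probe.

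**Figure D4:**
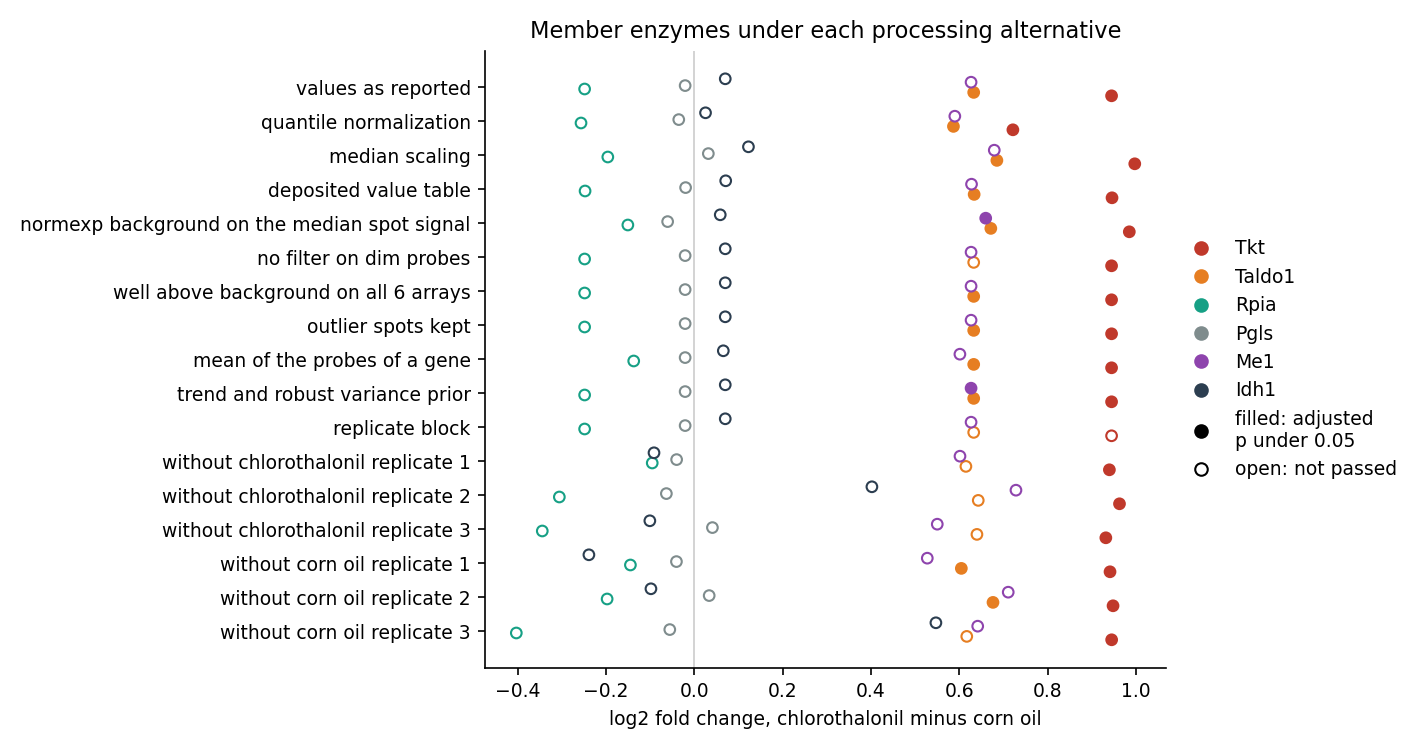
Log2 fold change, chlorothalonil minus corn oil, of each enzyme as reported and under each of 16 alternatives in processing or choice of arrays, filled where the limma adjusted p was under 0.05. Tkt, Taldo1 and Me1 stay right of 0.5 throughout, while Idh1 lies on either side of 0 depending on the array left out.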

How the data were processed

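RNA of renal cortex was hybridised on Agilent 1-colour arrays, 1 per animal, with 3 animals per group. The deposited spot brightness is an intensity extracted with Agilent Feature Extraction, version 10.7 per the submitters' processing notes, and the processed signal is background-subtracted and spatially detrended within each array per the file headers. The deposited value table holds a ratio, which dividing the processed signals by it showed to be a linear scaling by 1 constant per array, 1.002 to 1.005 times that array's 75th percentile, with no centring between arrays. The medians of its columns were 0.105, 0.105 and 0.106 for chlorothalonil and 0.107, 0.109 and 0.112 for corn oil replicates 1 to 3.

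The log2 processed signal minus the array's 75th percentile was used, outlier spots left out. Kept probes were well above background on all 3 arrays of a group, with at least 2 measured arrays in each. Probes were named by unversioned accession through a RefSeq table of GRCr8 (28206 of 61537 probes matched), and the brightest kept probe stood for a gene, giving 29115 features. The comparison used limma 3.58.1 under R 4.3.3, two-sided, with Benjamini-Hochberg adjustment over all features and a threshold of 0.05, and the fit was tested on simulated data. The members, lists and rules were chosen with earlier results of these data known. The text names all members, and from each list the genes past the threshold or the one with the smallest p. The likeness rule took 3 genes per enzyme. Of the genes these rules took, 3 are not reported here. The files have no mean spot signal, so normexp (offset 50) used the median. The fit did not pair samples by replicate number. Same-numbered arrays had correlations of deviations of 0.0948, 0.0177 and 0.0511. Alternatives are listed with their effects in the closing section.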

Additional observations from a re-analysis of the deposited data

How the results depend on the processing

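Of 16 alternatives, Tkt passed in 15, Taldo1 in 10 and Me1 in 2, and these 3 genes kept a log2 fold change above 0 in all 16. Rpia, Pgls and Idh1 passed in 0 of the 16 in limma. Me1 moved past the threshold with normexp (log2 fold change 0.66) and with the trended and robust prior (0.63). With no filter on dim probes, which raised the features tested to 45432, Taldo1 did not pass (0.63, adjusted p 0.0563), 1 member changed, 172 features changed and 4 list genes changed. With the replicate number as a block, Tkt (0.94, adjusted p 0.077) and Taldo1 (0.63, adjusted p 0.0951) did not pass, and limma called 0 members, 0 of 29115 features and 0 of 74 genes of the 5 metabolic lists, while 3, 5271 and 23 had an unadjusted p under 0.05. The sample titles state no pairing. Chlorothalonil replicates 1 and 2 correlated best with the corn oil array of their own number, at 0.0948 and 0.0177. Chlorothalonil replicate 3 did not, at 0.0511 with its own number and 0.053 with corn oil replicate 2. Whether the numbers pair samples was not tested. Leaving out 1 array gave 1 to 2 changed members, against 2 as reported, 0.60 to 0.68 for Taldo1, 112 to 388 changed features, against 909, and 3 to 7 changed list genes, against 8. Scaling to the array median gave 435 features higher and 368 lower, where 378 were higher and 531 lower as reported. The planned slide block could not be fitted, since each slide held 1 group. Each exact permutation p of Tkt, Taldo1 and Me1 was 0.1, the smallest possible with 3 arrays per group.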

Other observations

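For several genes of the lists, probes of the same gene disagreed. Mthfd2, a mitochondrial folate enzyme, had 5 probes with log2 fold changes between 0.09 and 0.87, of which the brightest gave 0.16. Aldoc, the aldolase of brain, was at 0.34 on its brightest probe and −0.65 on another. Aldh1l2, the mitochondrial counterpart of Aldh1l1, was at 0.41 on one probe and −0.18 on the other. The probes of Tkt, Taldo1, Pgls and Aldh1l1 were 1 each, and have no second probe beside them.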
